A study of Homo sapiens with 6 samples.

Results

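The expression of mitochondrial protein import genes was compared between HK-2 cells overexpressing *PPM1K* (OE) and control cells (NC). The genes were taken by name from the deposited tables, as protein-coding genes whose symbols begin with TIMM or TOMM and a number, TIMMDC1, and 13 further genes with a known place in import (SAMM50, MTX1, MTX2, MTX3, GRPEL1, GRPEL2, PAM16, DNAJC15, DNAJC19, CHCHD4, GFER, PMPCA and PMPCB). Symbols with a hyphen were left out. This gave 38 genes of the 31369 in the count table, by a rule on names alone, which was written with earlier results of these data known. RNA of 6 samples was sequenced from stranded mRNA libraries, 3 samples in each group, and the total count per sample was between 34635770 and 39850802.

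HK-2 is an established human proximal tubule epithelial cell line. The NC samples carry the genotype entry WT and the OE samples the entry PPM1K overexpress, and the study describes transfection of a PPM1K plasmid with Lipofectamine. The titles instead name a short hairpin control and a short hairpin against PPM1K, at day 10, and all 6 samples carry chronic kidney disease as their treatment entry. What the control cells were transfected with is not given in the labels, and although the study calls its replicates biological, the labels and methods do not say whether the 3 samples of a group came from separate cultures, so the p-values may measure only the spread between these samples, which may be technical. *PPM1K* itself, which encodes the matrix phosphatase that activates the branched-chain keto acid dehydrogenase, had deposited counts of 37, 19 and 53 in NC and 3294, 3531 and 2919 in OE (replicates 1, 2 and 3 in each group, the order used throughout). The log2 fold change in OE relative to NC was 6.39 (SE 0.13, edgeR adjusted p = 1.1e-18), which goes with the genotype entries and against the titles. NC replicate 2 had a count for 26478 genes, against 22094 to 22913 in the other samples. It had 3551 genes counted in no other sample, against 449 to 766 for each of the others. In the study's read distribution this library also had the highest shares of intronic, intergenic and antisense reads.

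Most mitochondrial proteins are made in the cytosol and pulled into the organelle by membrane complexes. The TOM complex of the outer membrane is the common gate. From there, proteins with a cleavable presequence pass the TIM23 complex and are drawn into the matrix by a motor built around the chaperone mtHsp70, carrier proteins of the inner membrane go through small TIM chaperones to the TIM22 complex, β-barrel proteins are inserted by the SAM complex, and small cysteine-rich proteins are trapped in the intermembrane space by oxidation. Kidney proximal tubule cells are rich in mitochondria.

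Import genes were mostly higher in OE. Of the 38 genes, 36 passed edgeR's filter on low counts, and 20 of these were higher and 4 lower in OE at an adjusted p under 0.05 (edgeR's quasi-likelihood test, Benjamini-Hochberg adjustment over 15878 genes), while 12 were not called. Among all tested genes 24.9% were called higher and 23.7% lower, among tested protein-coding genes 27.4% and 24.6%, and among the 8046 tested genes with a mean count within the range of the import genes 32.5% and 26.0%. The median log2 fold change of the 36 genes was 0.28, beside −0.0032 for all tested genes. The changes were of modest size: the 20 genes were between 1.12-fold and 1.75-fold higher, and none met the study's cut-off, where an adjusted p under 0.05 is joined to a fold change of more than 2 or less than 0.5, which 5.51% of all tested genes did. That count was 0 with edgeR, DESeq2 and limma alike, while 25 of the 36 genes, and 54.5% of all tested genes, had an unadjusted p under 0.05 in edgeR.

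In CPM, counts scaled to a common library size with edgeR's TMM factors, all 3 OE samples lay above all 3 NC samples for 22 of the 36 genes and below them for 4. Over all tested genes these shares were 28.2% and 27.1%, over protein-coding genes 30.6% and 27.8%, and over genes within the count range of the import genes 35.5% and 28.3%. The summed CPM of the 38 genes was 1395, 1369 and 1417 in NC and 1637, 1637 and 1547 in OE, so the OE samples were each above the NC samples, by a ratio of the means of 1.15. The 24 called genes had no overlap between the groups. The calls rest on the same 6 samples, so the lack of overlap is no separate support for them.

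**Figure D1:**
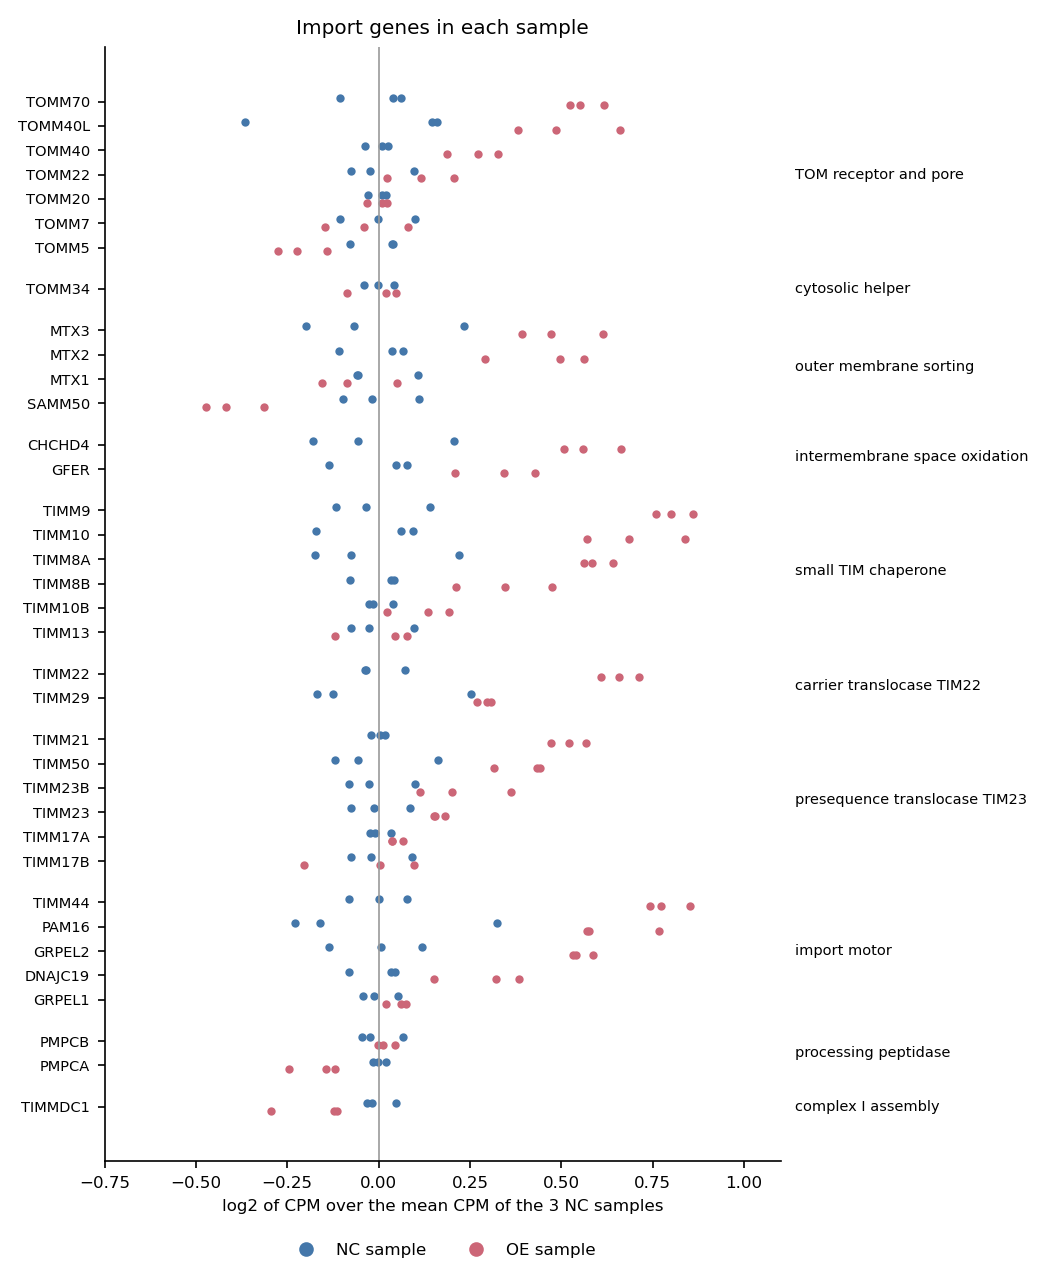
Each row is an import gene that passed the filter on low counts, grouped by role; the x axis gives log2 of its CPM in a sample over the mean CPM of the 3 NC samples, with 3 NC points above and 3 OE points below the row line. OE points lie to the right of the NC points for 22 of the 36 genes, farthest for TIMM9 and TIMM44, and to the left for TOMM5, SAMM50, PMPCA and TIMMDC1.

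The genes with the largest increases belonged to the carrier route and the import motor. TIMM9 had the largest fold change, 1.75, followed by TIMM44 with 1.73, TIMM10 with 1.63 and TIMM22 with 1.58. At the other end SAMM50 had 0.758. Since these genes mark the ends of the range, the 250 bases before the RefSeq transcription start of each are shown, 5′ to 3′ on the strand of the gene (GRCh38.p14). They lie at chr14:58427532-58427781 (minus strand), chr19:7943667-7943916 (minus strand), chr11:57530755-57531004 (minus strand), chr17:996879-997128 (plus strand) and chr22:43955192-43955441 (plus strand). Capitals mark matches, on either strand, to the cores bound by NRF1 (GCATGCGC) and GABP (CCGGAAG), to the ATF4-CEBP element (TGATGNAA), to the CCAAT box and to the E-box (CACGTG).
TIMM9: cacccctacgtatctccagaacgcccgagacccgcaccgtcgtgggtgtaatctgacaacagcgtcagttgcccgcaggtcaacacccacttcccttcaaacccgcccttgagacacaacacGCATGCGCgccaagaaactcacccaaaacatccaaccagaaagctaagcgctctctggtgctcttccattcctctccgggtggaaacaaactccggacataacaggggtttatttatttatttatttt
TIMM44: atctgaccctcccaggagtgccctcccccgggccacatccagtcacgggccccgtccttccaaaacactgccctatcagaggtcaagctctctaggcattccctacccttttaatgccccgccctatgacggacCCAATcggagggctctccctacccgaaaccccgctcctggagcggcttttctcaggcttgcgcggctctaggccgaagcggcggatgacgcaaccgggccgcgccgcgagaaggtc
TIMM10: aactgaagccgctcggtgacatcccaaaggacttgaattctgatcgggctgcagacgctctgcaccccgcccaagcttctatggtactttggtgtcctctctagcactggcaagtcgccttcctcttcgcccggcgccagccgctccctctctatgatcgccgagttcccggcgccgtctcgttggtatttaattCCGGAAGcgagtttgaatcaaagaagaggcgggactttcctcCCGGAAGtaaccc
TIMM22: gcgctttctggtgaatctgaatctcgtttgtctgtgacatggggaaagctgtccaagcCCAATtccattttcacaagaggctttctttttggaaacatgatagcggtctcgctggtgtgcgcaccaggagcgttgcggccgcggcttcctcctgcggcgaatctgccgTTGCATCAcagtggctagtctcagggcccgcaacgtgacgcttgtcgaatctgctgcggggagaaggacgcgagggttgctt
SAMM50: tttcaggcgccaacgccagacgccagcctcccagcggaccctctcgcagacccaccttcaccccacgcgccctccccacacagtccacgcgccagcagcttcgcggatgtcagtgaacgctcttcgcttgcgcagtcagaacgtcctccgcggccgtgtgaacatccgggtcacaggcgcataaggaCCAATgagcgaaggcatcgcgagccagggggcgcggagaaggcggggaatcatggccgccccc

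TIMM9 held an NRF1 core 128 to 121 bases before the start. TIMM10 held 2 GABP cores, at 55 to 49 and at 13 to 7 bases before it. TIMM22 held a minus-strand match to the ATF4-CEBP element at 82 to 75 bases and a CCAAT box at 192 to 188 bases. TIMM44 and SAMM50 each held a CCAAT box, at 116 to 112 and at 63 to 59 bases. In the RefSeq table, 35 of the 38 genes had an entry, of 250 bases before and 50 after the start, and GRPEL1, TIMM8B and TOMM5 had none. Over these 300-base windows and both strands, the GABP core was in 16 of 35 members (45.7%) and 21.6% of the genes tested. The NRF1 core was in 5 of 35 members (14.3%) and 6.31% of the genes tested, and the ATF4-CEBP element was in 2 of 35 members (5.71%) and 2.76% of the genes tested, as TIMM22 and PMPCB. The shares were 12 of 35 members (34.3%) and 43.04% of the genes tested for the CCAAT box, 4 of 35 members (11.4%) and 12.7% of the genes tested for the E-box and 22 of 35 members (62.9%) and 76.7% of the genes tested for the GC box (GGGCGG), which is left in lower case above. Of the genes with a GABP core, 7 were called higher (of 19 genes with an entry), 1 lower (of 3) and 7 were not called (of 11), and DNAJC15 was not tested. Such matches describe the letters of these windows and were not tested against the expression values.

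In the TOM complex, 3 of 7 tested genes rose, 1 fell and 3 were not called, with a median log2 fold change of 0.12. TOMM70, the receptor that takes up carrier proteins with their cytosolic chaperones, had a CPM of 37.9, 42.6 and 41.9 in NC and 58.7, 59.8 and 62.6 in OE (log2 fold change 0.56, SE 0.060, edgeR adjusted p = 1.1e-07). All OE samples were well above the highest NC sample. TOMM20, the receptor for presequences, had a CPM of 91.8, 94.97 and 94.4 in NC and 91.6, 95.3 and 94.3 in OE, so the groups overlapped, and the 95% interval of its log2 fold change ran from −0.10 to 0.10. The pore subunit TOMM40 had 83.7, 84.6 and 81.04 in NC and 104, 100.3 and 94.7 in OE (log2 fold change 0.26, SE 0.052, edgeR adjusted p = 2.8e-04), without overlap. Its less counted paralogue TOMM40L had 8.13, 8.21 and 5.70 in NC and 10.3, 11.6 and 9.58 in OE (log2 fold change 0.52, SE 0.12, edgeR adjusted p = 0.0017). NC replicate 3 was the lowest of the NC samples for TOMM40L, and exons of this gene overlap those of NR1I3 on the other strand. TOMM22, a receptor that also holds the complex together, was not called (log2 fold change 0.12, SE 0.066, edgeR adjusted p = 0.15).

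Among the small TOM subunits, TOMM5 fell, with CPM values of 14.3, 15.5 and 15.5 in NC and 13.7, 12.5 and 12.96 in OE (log2 fold change −0.21, SE 0.082, edgeR adjusted p = 0.037). Each OE sample was below each NC sample, and exons of TOMM5 overlap unnamed genes on the same strand, but the call was lost without NC replicate 2, NC replicate 3, OE replicate 2 or OE replicate 3, with adjusted p of 0.11, 0.13, 0.12 and 0.052 in the edgeR fits, and with DESeq2 (0.10). TOMM7 was not called (log2 fold change −0.031, SE 0.074, edgeR adjusted p = 0.75), with an interval of −0.19 to 0.12. TOMM34, a cytosolic helper that binds import precursors, lay at 62.3, 58.9 and 60.5 in NC and 62.6, 61.4 and 57.1 in OE, with an interval of −0.12 to 0.11. TOMM20L, a paralogue of TOMM20, was close to absent, with counts of 1, 0 and 1 in NC and 0, 1 and 0 in OE, and did not pass the filter. TOMM6 was not analysed here.

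The sorting machinery of the outer membrane moved in both directions. SAMM50 (chr22:43955442-44010531), the β-barrel core of the SAM complex, was the gene that fell most, with CPM values of 17.7, 18.7 and 20.4 in NC and 14.2, 13.7 and 15.2 in OE (log2 fold change −0.40, SE 0.083, edgeR adjusted p = 4.2e-04). The highest OE sample was below the lowest NC sample. Its partners on the cytosolic face rose or were not called: MTX2 had 16.9, 18.7 and 19.1 in NC and 26.9, 25.7 and 22.3 in OE (log2 fold change 0.45, SE 0.083, edgeR adjusted p = 1.2e-04). MTX3 had 9.83, 13.3 and 10.8 in NC and 14.8, 15.7 and 17.3 in OE (log2 fold change 0.49, SE 0.10, edgeR adjusted p = 3.7e-04). Neither gene had overlapping groups, although for MTX3 NC replicate 2 came close to the lowest OE sample. MTX1 was not called, with an interval of −0.23 to 0.10. Exons of SAMM50 overlap those of PNPLA3 on the same strand.

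In the intermembrane space both genes of the oxidation relay rose. CHCHD4, the receptor and oxidase that traps cysteine-rich proteins, had 20.2, 16.8 and 15.4 in NC and 27.7, 24.9 and 25.7 in OE (log2 fold change 0.58, SE 0.089, edgeR adjusted p = 1.7e-05). GFER, the sulfhydryl oxidase that re-oxidises it, had 33.1, 28.6 and 32.5 in NC and 39.8, 42.2 and 36.3 in OE (log2 fold change 0.33, SE 0.074, edgeR adjusted p = 8.6e-04). The groups did not overlap for either gene, and their summed CPM was 48.9 ± 4.04 for NC (SD, n = 3) against 65.5 ± 3.04 for OE (SD, n = 3).

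Of the 6 small TIM chaperones, which escort hydrophobic precursors across the intermembrane space, 4 rose and 2 were not called, with a median log2 fold change of 0.47. TIMM9 (chr14:58408495-58427531) had CPM values of 11.4, 12.1 and 13.7 in NC and 20.99, 22.5 and 21.6 in OE (log2 fold change 0.81, SE 0.084, edgeR adjusted p = 8.8e-08). TIMM10 (chr11:57528464-57530803), which forms a hexamer with TIMM9, had 25.9, 21.5 and 25.3 in NC and 43.4, 38.9 and 36.00 in OE (log2 fold change 0.70, SE 0.081, edgeR adjusted p = 4.2e-07). For both genes every OE sample was far above the NC samples, relative to the spread within either group. Exons of TIMM9 overlap KIAA0586 and TOMM20L on the other strand, and TOMM20L had at most 1 count in a sample. TIMM8A, whose loss causes deafness-dystonia syndrome, had 7.27, 7.78 and 9.57 in NC and 12.8, 12.1 and 12.3 in OE (log2 fold change 0.60, SE 0.10, edgeR adjusted p = 6.7e-05). Its paralogue TIMM8B was counted more and also rose, with 49.02, 45.1 and 48.8 in NC and 66.2, 60.5 and 55.2 in OE (log2 fold change 0.35, SE 0.065, edgeR adjusted p = 1.4e-04). TIMM13, the partner of TIMM8A in its hexamer, had 46.5, 44.9 and 50.7 in NC and 48.8, 50.02 and 43.6 in OE, and its groups overlapped, with an interval of −0.13 to 0.14. TIMM10B, the subunit that docks the chaperones to the TIM22 complex, was not called (log2 fold change 0.12, SE 0.077, edgeR adjusted p = 0.22).

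Both genes of the carrier translocase in the list rose. TIMM22 (chr17:997129-1003671), its channel, had 26.6, 24.7 and 24.7 in NC and 39.97, 41.5 and 38.6 in OE (log2 fold change 0.66, SE 0.067, edgeR adjusted p = 6.1e-08). The OE samples stood clear of the NC samples. TIMM29, a subunit that joins the channel to the TOM complex, had 7.87, 5.88 and 6.06 in NC and 8.18, 7.97 and 8.12 in OE (log2 fold change 0.29, SE 0.12, edgeR adjusted p = 0.046). NC replicate 1 lay just under the OE samples here. The call for TIMM29 was lost in 5 of the 6 edgeR fits that left out a sample, with adjusted p of 0.18 without NC replicate 2, 0.16 without NC replicate 3, and 0.091, 0.073 and 0.072 without OE replicates 1, 2 and 3, and with DESeq2 (0.10).

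In the presequence translocase, 3 of 6 genes rose and 3 were not called. TIMM21, which links the TIM23 complex to the TOM complex and to the respiratory chain, had 44.1, 44.8 and 45.3 in NC and 64.2, 66.3 and 61.99 in OE (log2 fold change 0.52, SE 0.054, edgeR adjusted p = 9.7e-08). TIMM50, the receptor that picks up presequences as they leave the TOM complex, had 24.2, 25.3 and 29.5 in NC and 35.6, 35.8 and 32.8 in OE (log2 fold change 0.40, SE 0.077, edgeR adjusted p = 2.2e-04). Neither had overlapping groups. The channel gene TIMM23 had the highest FPKM of all 38 genes, and its CPM was 122, 109 and 114 in NC and 128, 131 and 128 in OE (log2 fold change 0.16, SE 0.052, edgeR adjusted p = 0.013). The OE samples were above the NC samples by a small margin, and the call was lost without NC replicate 2 (adjusted p = 0.080) or NC replicate 3 (adjusted p = 0.053) in edgeR. TIMM23B, a near-identical copy of TIMM23, was not called (log2 fold change 0.23, SE 0.095, edgeR adjusted p = 0.053) although its groups did not overlap, and it was called without NC replicate 1 (adjusted p = 0.042) or OE replicate 3 (adjusted p = 0.023), and with limma on log2(FPKM + 1) or log2(FPKM + 0.1) (adjusted p = 0.028 in both). The authors counted uniquely mapped reads, which can leave out reads that TIMM23 and TIMM23B share, so both values are uncertain. The paralogues TIMM17A and TIMM17B, which pair with TIMM23 in the channel, had intervals of −0.072 to 0.17 and −0.21 to 0.16.

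Of the motor genes, 4 of 5 tested rose. TIMM44 (chr19:7926718-7943667), which tethers mtHsp70 to the channel, had 63.8, 67.5 and 71.2 in NC and 115, 122 and 113 in OE (log2 fold change 0.79, SE 0.055, edgeR adjusted p = 2.0e-10), the smallest adjusted p of the 36 genes. The lowest OE sample was far above the highest NC sample. PAM16, which regulates the J-protein of the motor, had 5.63, 5.91 and 8.26 in NC and 11.2, 9.84 and 9.80 in OE (log2 fold change 0.64, SE 0.13, edgeR adjusted p = 2.7e-04). NC replicate 3 was above the other NC samples but below all OE samples, and exons of PAM16 are shared with the CORO7-PAM16 readthrough gene. DNAJC19, a J-protein of the inner membrane, had 36.2, 33.4 and 36.4 in NC and 46.1, 44.2 and 39.3 in OE (log2 fold change 0.29, SE 0.069, edgeR adjusted p = 0.0015). Of the nucleotide exchange factors of mtHsp70, GRPEL2 rose, with 9.20, 9.94 and 8.34 in NC and 13.3, 13.3 and 13.8 in OE (log2 fold change 0.55, SE 0.092, edgeR adjusted p = 3.8e-05). GRPEL1, with far higher counts, had 92.6, 90.5 and 96.9 in NC and 97.3, 98.3 and 94.6 in OE, with an interval of −0.053 to 0.16. DNAJC15, another J-protein, had counts of 0, 5 and 5 in NC and 0, 1 and 3 in OE and did not pass the filter.

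The matrix processing peptidase, which removes presequences, was not among the genes that rose. PMPCA, its substrate-recognition subunit, was slightly lower (log2 fold change −0.17, SE 0.054, edgeR adjusted p = 0.014), with CPM values of 66.9, 65.3 and 65.9 in NC and 59.7, 60.8 and 55.7 in OE. That call was lost without NC replicate 1 (edgeR adjusted p = 0.065). PMPCB, the catalytic subunit, was not called, with an interval of −0.095 to 0.13. TIMMDC1, which shares its name with the translocases but is an assembly factor of respiratory complex I, was lower, with 121, 120.0 and 127 in NC and 113, 113 and 100.1 in OE (log2 fold change −0.17, SE 0.055, edgeR adjusted p = 0.012), and lost its call without NC replicate 3 (edgeR adjusted p = 0.080).

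**Figure D2:**
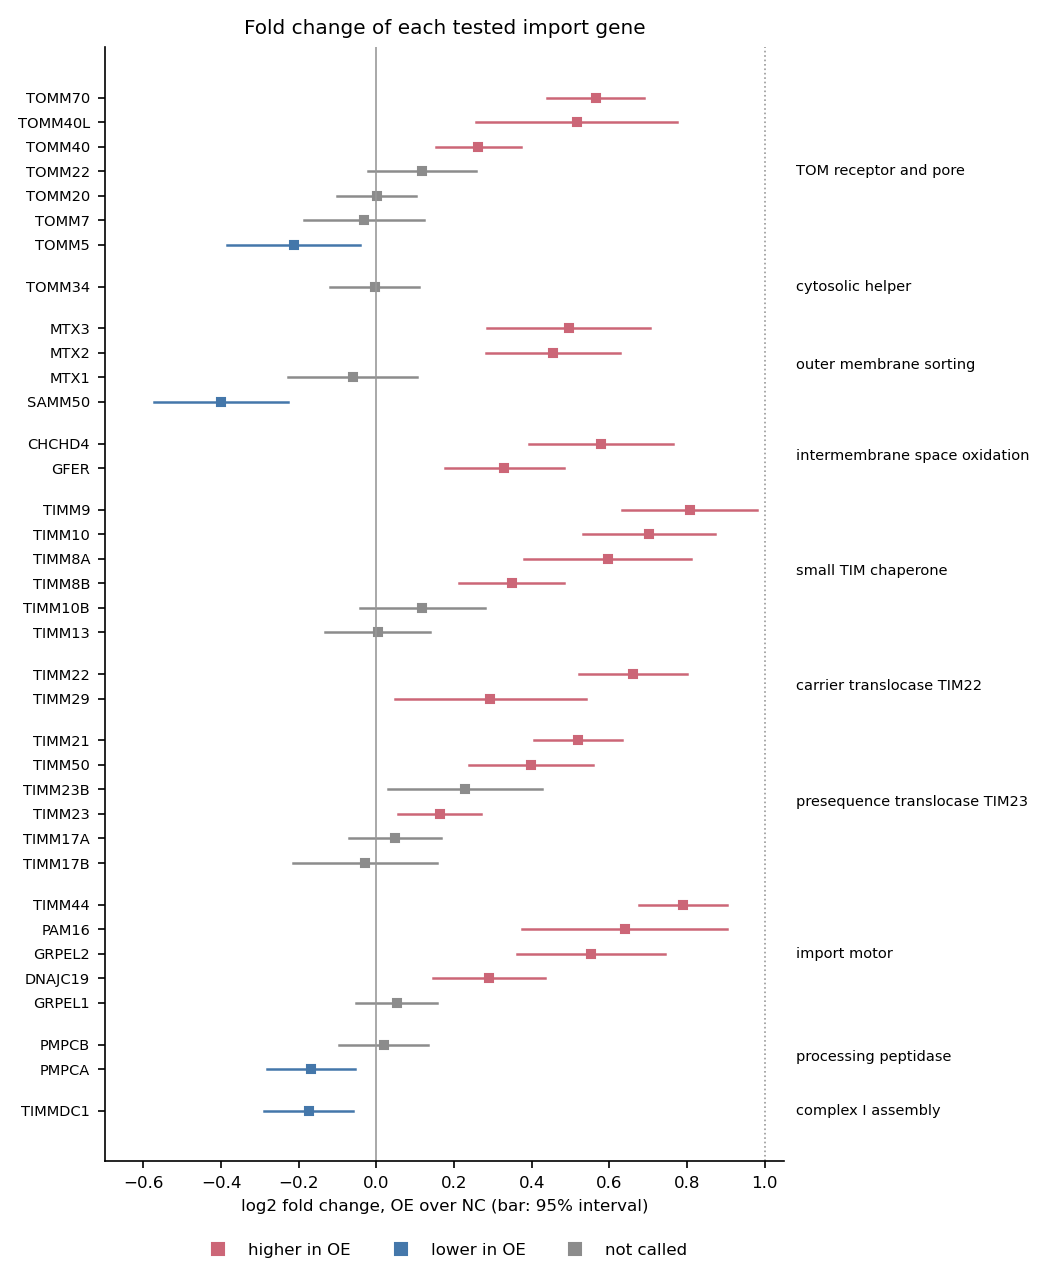
Squares give the log2 fold change (OE/NC) from edgeR for the 36 tested import genes (x axis) and bars its 95% interval, with genes in rows by role and the dotted line at a fold change of 2. TIMM9, TIMM44 and TIMM10 lie farthest to the right, at 0.81, 0.79 and 0.70, and SAMM50 farthest to the left, at −0.40.

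By route, the ratio of the summed CPM in OE to that in NC, taken over the means, was highest for the pair of TIM22 genes (1.51), followed by the oxidation relay (1.34), the motor (1.32) and the small TIM chaperones (1.27). For the TIM23 genes it was 1.17, for the TOM genes 1.13, for the sorting genes 1.083 and for the peptidase 0.946. The sums of the motor were 212 ± 7.97 for NC (SD, n = 3) against 280.3 ± 8.80 for OE (SD, n = 3), and those of the TOM genes 312 ± 3.45 for NC (SD, n = 3) against 352 ± 7.29 for OE (SD, n = 3). The sums hold only genes chosen by the naming rule, and the order of the routes depends on that choice. The mtHsp70 gene HSPA9, with a mean CPM of 807 in NC and 1518 in OE, is not in the motor sum. TIMM10B, which docks to the TIM22 complex, is summed with the small TIM chaperones. These ratios are descriptions, and the differences between routes were not tested.

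Whether partner genes moved in step was compared within samples, where the log2 ratio of the counts of a pair of genes does not depend on the scaling of the library. Of 11 pairs of paralogues or partners that could be compared, 7 had ratios without overlap between NC and OE, each at p = 0.1 in an exact permutation test (two-sided), which is as low as 3 against 3 can reach (0.16 after Benjamini-Hochberg adjustment over the 11 pairs), so that none could pass 0.05. Among all pairs of tested genes with a mean count in the range of the import genes, 64.2% had ratios without overlap, so the 7 of 11 were near the background and the values below are descriptions. The log2 ratio of TIMM10 to TIMM10B was 0.41 ± 0.13 for NC (SD, n = 3) against 1.00 ± 0.18 for OE (SD, n = 3). That of TOMM20 to TOMM70 was 1.201 ± 0.065 for NC (SD, n = 3) against 0.64 ± 0.041 for OE (SD, n = 3), that of MTX1 to MTX2 0.28 ± 0.19 for NC (SD, n = 3) against −0.24 ± 0.068 for OE (SD, n = 3), and that of GRPEL1 to GRPEL2 3.35 ± 0.18 for NC (SD, n = 3) against 2.85 ± 0.058 for OE (SD, n = 3). The ratio of TIMM22 to TIMM23 was −2.18 ± 0.035 for NC (SD, n = 3) against −1.69 ± 0.039 for OE (SD, n = 3), a difference of 0.50. PMPCA to PMPCB and TOMM40 to TOMM40L had differences of −0.19 and −0.27, and the latter was −0.11 without NC replicate 3. The ratios of TIMM17A to TIMM17B, TIMM8A to TIMM8B, TIMM23 to TIMM23B and CHCHD4 to GFER overlapped between the groups, with exact p from 0.2 to 0.7.

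**Figure D3:**
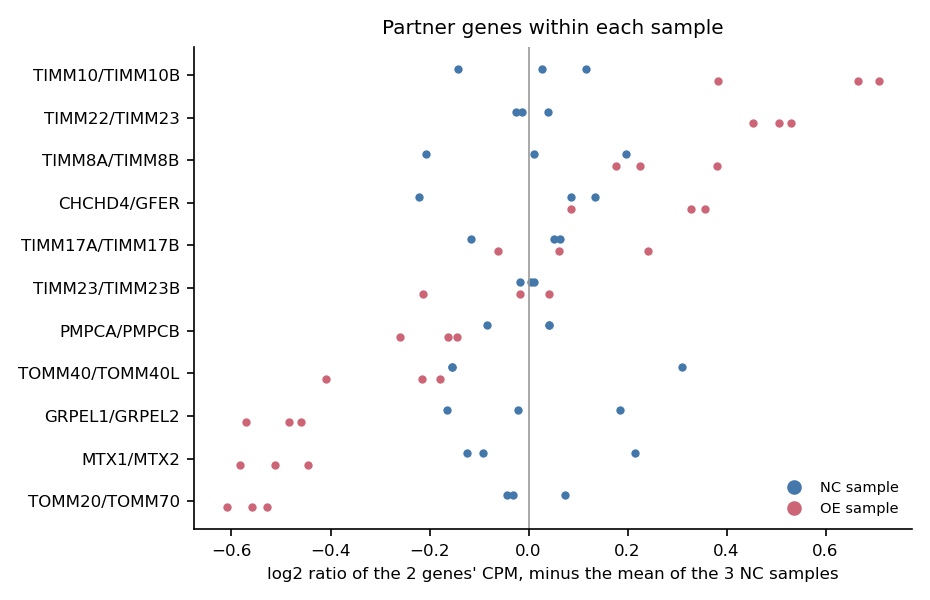
Each row is a pair of import genes; the x axis gives the log2 ratio of their CPM in a sample, less the mean of the 3 NC samples, with NC points above and OE points below the row line. The OE points are clear of the NC points in 7 of the 11 pairs, beside 64.2% of all pairs in the same count range, with mean differences from −0.57 for TOMM20/TOMM70 to 0.59 for TIMM10/TIMM10B.

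Levels of different genes were compared in FPKM, the fragment counts scaled for transcript length and library size that the authors deposited. TIMM23 stood highest, with 89.2 ± 6.12 for NC (SD, n = 3) against 101 ± 2.08 for OE (SD, n = 3). TIMMDC1 came second in NC, with 41.6 ± 1.47 for NC (SD, n = 3) against 37.4 ± 2.19 for OE (SD, n = 3), and was passed in OE by TIMM8B (37.7 ± 2.18 for NC (SD, n = 3) against 48.5 ± 3.73 for OE (SD, n = 3)) and by TIMM10 (28.8 ± 3.16 for NC (SD, n = 3) against 47.4 ± 3.76 for OE (SD, n = 3)). The lowest of the 36 tested genes was MTX3, with 1.31 ± 0.191 for NC (SD, n = 3) against 1.88 ± 0.172 for OE (SD, n = 3). TIMM9 moved up in the order, with 8.07 ± 0.743 for NC (SD, n = 3) against 14.3 ± 0.630 for OE (SD, n = 3), as did TIMM44, with 13.4 ± 0.696 for NC (SD, n = 3) against 23.5 ± 0.932 for OE (SD, n = 3). The order as a whole was kept closely, with a Spearman's rho of 0.968 between the mean FPKM of NC and OE over the 36 genes, which come from the same 6 libraries. The log2 fold change and the mean FPKM in NC had a rho of −0.23 over the same genes, so that genes of high and of low level were among those that rose. The FPKM corresponds to a length close to the union of all annotated exons of a gene (a median ratio of 1.07 to the union in GENCODE release 44), with the lowest ratio, 0.399, for PMPCB.

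**Figure D4:**
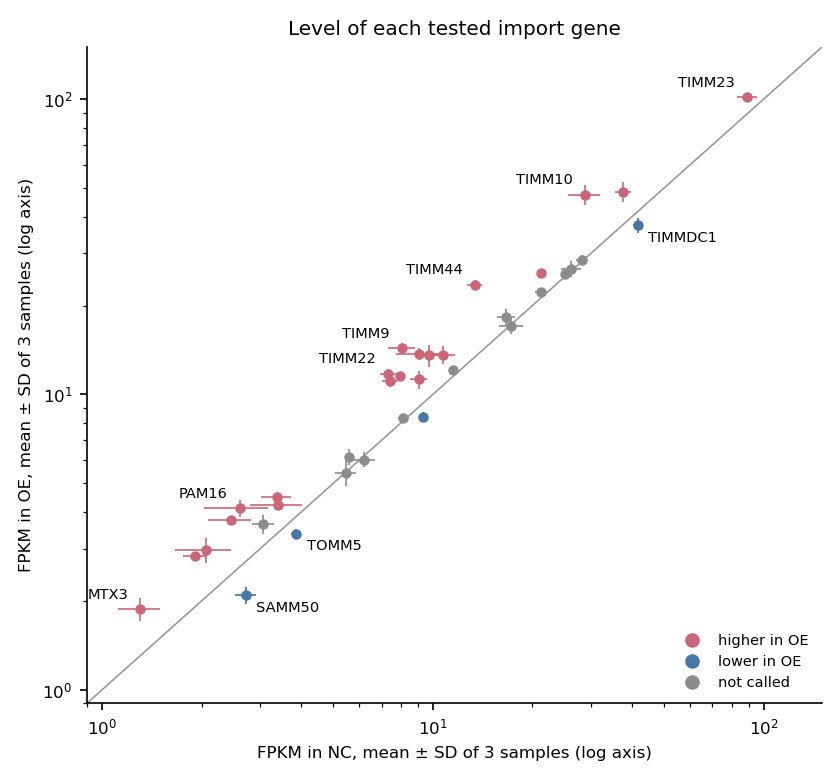
Points give the mean FPKM of each of the 36 tested import genes in NC (x axis) and OE (y axis), both on log axes, with bars for the SD of 3 samples and the line of equal level. Points above the line are higher in OE; TIMM23 is the highest in both groups and MTX3 the lowest.

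A further list held 20 genes that act in import, sorting or delivery and are not chosen by the naming rule above. All were tested, with 6 higher, 6 lower and 8 not called, and a median log2 fold change of −0.034. Among all tested genes 24.9% were called higher and 23.7% lower. HSPA9, the mtHsp70 that TIMM44 binds, had CPM values of 782, 809 and 829 in NC and 1519, 1519.6 and 1514 in OE (log2 fold change 0.91, SE 0.050, edgeR adjusted p = 5.6e-12), a larger change than that of any of the 36 genes. The cytosolic chaperones that hand precursors to TOMM70 were lower, HSPA8 with 1331, 1231 and 1329 in NC and 752, 771 and 704 in OE (log2 fold change −0.80, SE 0.054, edgeR adjusted p = 1.3e-10) and HSP90AA1 with 3251, 3304 and 3202 in NC and 2283, 2404 and 2587 in OE (log2 fold change −0.42, SE 0.057, edgeR adjusted p = 2.7e-06). Their co-chaperone DNAJA2 was higher (log2 fold change 0.30, SE 0.048, edgeR adjusted p = 2.2e-05). ATAD1, which extracts proteins stuck in the outer membrane, was higher (log2 fold change 0.45, SE 0.070, edgeR adjusted p = 2.1e-05), and PITRM1, the matrix protease that degrades cleaved presequences, was lower (log2 fold change −0.35, SE 0.058, edgeR adjusted p = 4.1e-05). Higher were also BCS1L, AGK and DNAJA1, with log2 fold changes of 0.35, 0.22 and 0.15, and lower MIPEP, OXA1L and AIFM1, with −0.35, −0.25 and −0.14. The count of genes called in this list fell to 4 higher and 4 lower without NC replicate 2. In that fit 22.5% of all tested genes were called higher and 20.6% lower.

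**Figure D5:**
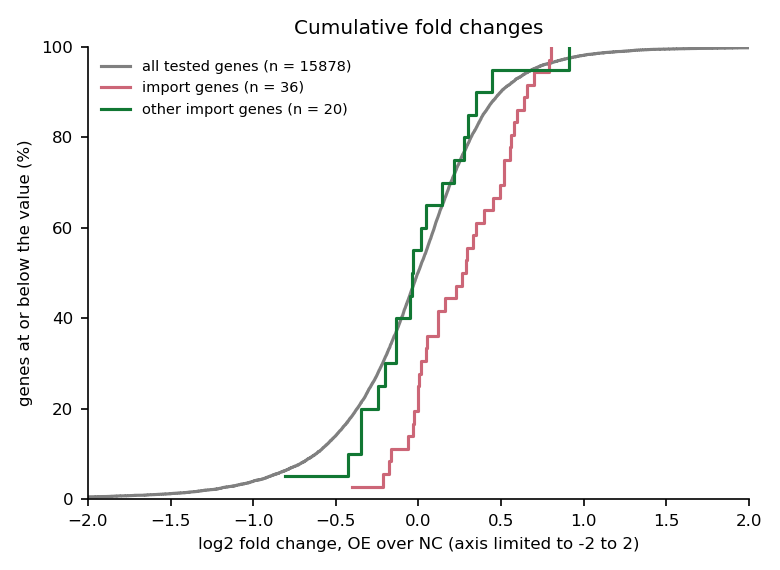
The curves give the share of genes (y axis, %) with a log2 fold change (OE/NC) at or below the value on the x axis, for all 15878 tested genes, the 36 tested import genes and the 20 genes of the further list. The curve of the import genes, with a median of 0.28, lies to the right of that of all tested genes at the quantiles from 0.05 to 0.95. At the 0.95 quantile the values are 0.72 and 0.69. The curve of the import genes ends at 0.81, and some of all tested genes lie above that. The further list has a median of −0.034.

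The identity of the cells was checked with short marker lists. KRT8, KRT18 and EPCAM were abundant, while CDH1 of the same list was low, with a mean CPM of 2.07 in NC and 0.973 in OE. The renal factor PAX8 had a CPM of 222 in NC. The defining proximal tubule genes LRP2, CUBN, AQP1 and SLC34A1 had means under 1 CPM in both groups. Of the 9 tubule genes measured, 2 had a mean above 1 CPM, and the summed CPM of the 9 was 219 to 232 in NC and 259 to 279.8 in OE. That sum is almost all PAX8, which was called higher (log2 fold change 0.25), while GGT1 and SLC5A2 were called lower (−1.09 and −1.08). The 6 epithelial genes summed to 3534 to 3906 in NC and 2837 to 3110.4 in OE, with KRT8, KRT19, EPCAM and CDH1 called lower (−0.48, −0.48, −0.24 and −1.09), KRT7 called higher (0.36) and KRT18 not called (0.024). The sums were 17.7 to 18.97 in NC and 7.57 to 8.15 in OE for 6 fibroblast genes and 5.06 to 6.42 in NC and 7.04 to 7.98 in OE for 4 endothelial genes, and no leukocyte gene reached 1 CPM, with PTPRC and CD3E at 0 in 5 of the 6 samples. The ranges of NC and OE did not overlap for the tubule, epithelial, fibroblast and endothelial lists and overlapped for the leukocyte list, and their part in the import gene results was not tested. In bulk samples, fewer cells of a kind and less RNA per cell cannot be told apart.

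Exons of 19 of the 38 genes overlap those of another gene in GENCODE release 44, and whether the counting used the strand of the reads is not stated. Besides the called genes whose overlaps are named above, TIMM22 overlaps ABR, TIMM8B NKAPD1, DNAJC19 SOX2-OT, GRPEL2 GRPEL2-AS1 and TIMMDC1 CD80. TIMM44 and GFER overlap unnamed genes, and these overlaps are all on the other strand. Of the 18 tested genes without such overlap 11 were called higher and 1 lower. Among all tested genes, with or without overlap, the shares were 24.9% and 23.7%. Pseudogenes numbered after the gene are annotated for 13 of the 38, and the authors' use of uniquely mapped reads can leave out reads that such copies share.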

How the data were processed

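Stranded mRNA libraries of 6 HK-2 samples were sequenced as paired reads. The authors trimmed reads with FASTX-Toolkit, used HISAT2 for alignment to GRCh38 and took reads with a single mapping for counting. Deposited counts are unnormalized and cover 31369 genes. The authors computed the deposited FPKM, given for 30896 genes, from the same reads. Annotation release and counting program are not given in the sources used here.

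Counts were tested with edgeR 4.0.16 in R 4.3.3 (filterByExpr, TMM, quasi-likelihood F-test, Benjamini-Hochberg adjustment over 15878 genes); SE is the absolute log2 fold change over the root of F. Genes were called at an adjusted p under 0.05. DESeq2 1.42.0 and limma 3.58.1 on log2(FPKM + 1) or log2(FPKM + 0.1) were alternatives. Other import genes are a list written by hand. Values in every sample are given for called genes with an absolute log2 fold change of at least 0.2, for the 2 genes of highest FPKM and for genes removed by the filter; other values shown in full were chosen after they were seen. Of the further list, the 6 genes with the smallest adjusted p are given with statistics. Members and lists were chosen with earlier results of these data known, and the 6 promoter motifs were added after the expression results. Counts were simulated for the 15878 genes of this comparison, with 200 genes of any count level shifted. Of these, edgeR recovered 94 of 100 shifted by 1.5 on the log2 scale and 67 of 100 shifted by 0.5, with 12 false calls. In the data far more genes were called (24.9% higher and 23.7% lower), so these rates need not hold for the import genes. Replicates were not copies of one library: the mean chi-square per gene between replicates was 5.12 to 11.7, where sampling noise gives about 1. Gene positions and overlaps come from GENCODE release 44 (99.8% of identifiers found), promoters from RefSeq on GRCh38.p14. Intervals are 95% intervals of the edgeR fit.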

Additional observations from a re-analysis of the deposited data

How the results depend on the processing

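Of the 24 called import genes, 18 kept their call and direction in all 16 alternative fits, and the exceptions were TIMM23, TIMM29, TOMM40L, TOMM5, PMPCA and TIMMDC1. The number of genes higher stayed between 17 and 21. Over these fits the share of all tested genes called higher ran from 9.68% to 32.5%, and that called lower from 8.09% to 26.8%. The number lower was 1 with limma on log2(FPKM + 1) without a filter on low FPKM and between 2 and 4 with a sample left out (2 without NC replicate 3). TOMM40L lost its call in that limma fit alone (adjusted p = 0.058). TIMM23, TIMM29, TOMM5, PMPCA and TIMMDC1 lost theirs in it too, TIMM23 also under upper quartile normalization (adjusted p = 0.054), TIMM29 also under that normalization and with at least 10 counts in every sample, and TOMM5 also with no filter on low counts. The median log2 fold change of the genes ranged from 0.22 to 0.30. That of *PPM1K* was 2.90 on log2(FPKM + 1) and 6.08 to 6.75 with a sample left out.

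Signs changed only for genes not called. TOMM20 had −0.0025 with DESeq2's size factors, −0.0061 with at least 10 counts in every sample, −0.010 with protein-coding genes only and −0.037 with upper quartile normalization. TIMM13 had −0.0031, −0.0071 and −0.034 under the last 3 of these, and PMPCB −0.019 under the last. TOMM34 had 0.00083 with DESeq2, 0.014 with limma on log2(FPKM + 1), with or without the filter, and 0.015 on log2(FPKM + 0.1). With a sample left out the ranges were −0.0093 to 0.022 for TOMM20, −0.034 to 0.059 for TIMM13, −0.026 to 0.031 for TOMM34, −0.085 to 0.026 for TOMM7 and −0.094 to 0.048 for TIMM17B. The log2 ratio of TIMM17A to TIMM17B shifted by −6.7e-05 to 0.15 and that of TIMM23 to TIMM23B by −0.11 to 0.012. The causes were not tested.

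The groups share replicate numbers 1 to 3. With the replicate number as a block, 19 import genes were higher and 3 lower, beside 22.7% and 21.8% of all tested genes. TIMM29 and TOMM5 lost their calls (edgeR adjusted p = 0.051 and 0.077). The median log2 fold change of the import genes was 0.27, *PPM1K* had 6.39, and the further list had 4 higher and 5 lower. Same-numbered samples did not deviate together (correlations of −0.019, −0.17 and −0.17 over the tested genes), no NC sample correlated best with the OE sample of its own number, and the numbers were not taken as pairs. Each tested import gene had a mean of 268.5 counts or more. The 95% intervals of the 12 genes not called lay within −0.23 to 0.43 on the log2 scale.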

Other observations

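The readthrough gene TIMM23B-AGAP6, left out by its hyphen, shares exons with TIMM23B. Its CPM was 23.7, 26.4 and 26.3 in NC and 19.98, 17.4 and 16.4 in OE (log2 fold change −0.51, SE 0.083, edgeR adjusted p = 3.5e-05), lower in each OE sample than in each NC sample, while TIMM23B had 10.9, 9.57 and 9.96 in NC and 13.03, 11.6 and 10.96 in OE (log2 fold change 0.23, edgeR adjusted p = 0.053). How the authors' counting divided reads between these genes is not given in the sources used here.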
